A study of Mus musculus with 24 samples.

Results

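The genes described here encode the subunits of voltage-gated sodium and calcium channels. They were taken from the deposited table by symbol, as every gene whose symbol begins with Scn and a digit or m, or with Cacna, Cacnb or Cacng, and genes of the epithelial sodium channel (Scnn) were left out. The rule found 33 of the 15524 genes in the table. These were 5 sodium channel alpha subunits, 4 sodium channel beta subunits, 9 calcium channel alpha1 subunits, 4 alpha2delta subunits, 4 calcium channel beta subunits, 6 gamma subunits and Scnm1, a splicing factor that shares only the start of its symbol with the family.

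Whole lumbar spinal cords of 24 mice were profiled by MARS-seq on bulk RNA, a method that captures the 3' ends of transcripts and tags each molecule. SOD1-G37R stands for mice of the loxSOD1-G37R line, bred with C57BL6, whose transgene encodes human SOD1 with an ALS mutation and in which motor neurons are lost late in life. The groups were 4 SOD1-G37R males treated with AAV-PHP.eB-MIF by a tail-vein injection after disease onset (MIF mice), 10 untreated SOD1-G37R mice at the symptomatic stage, and 10 non-transgenic (NT) littermates. The untreated mice came from experiment 1, with 6 mice per genotype (3 of them female), and from experiment 2, with 4 males per genotype. By the pattern of their codes the MIF mice were placed with experiment 2, but the sources used here state neither their experiment nor their age. The promoter that drives MIF in the vector is likewise not given in the sources used here, and the animals of a group are separate mice of 1 line.

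Voltage-gated sodium channels open on depolarization and carry the rising phase of the action potential, and in myelinated neurons they are packed at the axon initial segment and the nodes of Ranvier. Their alpha subunit forms the pore, and beta subunits set its gating and tie it to the cell surface and cytoskeleton. Voltage-gated calcium channels turn depolarization into calcium entry, which triggers transmitter release at nerve terminals and, through low-threshold T-type channels, shapes rhythmic firing. Several of the genes named as calcium channel gamma subunits encode TARPs, which carry AMPA-type glutamate receptors to synapses and are the family's link to excitatory transmission.

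Values are levels on the log2 scale of the deposited table, after the authors' normalization and removal of the difference between experiments. Each difference is SOD1-G37R minus NT, MIF minus untreated SOD1-G37R, or MIF minus NT on that scale. A gene was called at an adjusted p under 0.05 in limma, with Benjamini-Hochberg adjustment over all 15524 genes. The spread between mice depended on the level. The median residual SD was 0.129 for genes with a mean level below 2 and 0.215 for genes between 4 and 6, and 4 of the 33 genes lay below 2, Scn3a, Cacna1s and Cacna2d4 among them. A difference in a low gene therefore cannot be set beside one in a higher gene. Levels are not per length of transcript, and no level is compared between genes except as a position on this scale. The medians of the 24 mice over all genes ran from 4.08 to 4.23, and the read depth of each mouse is unknown.

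SOD1-G37R spinal cords were compared with NT spinal cords first. Of the 33 channel genes, 15 were called, or 45.5%, against 26.5% of all genes tested. Of these, 14 fell in SOD1-G37R mice, which is 42.4% of the channel genes, against 11.8% of all genes. A single gene, Cacna2d4, rose, against 14.8% of all genes. The differences were furthest below 0 in Scn8a, Scn4b and Cacng2, that is, in the pore of the nodal sodium channel, in its partner subunit and in a TARP. The sodium channel beta subunits Scn2b, Scn3b and Scn4b fell, as did 2 of 5 sodium channel alpha subunits, 4 of 9 calcium channel alpha1 subunits, 2 of 4 alpha2delta subunits, 1 of 4 calcium channel beta subunits and 1 of 6 gamma subunits. Over all 33 genes, 28 differences lay below 0 and 5 above, where 49.8% of all genes lay below 0. The median difference was -0.23 for the channel genes and 0.00058 for all genes. Of the channel genes, 22 were at or above the median level of the table, and 12 of those 22 fell, against 19.9% of all genes at such a level. An unadjusted p under 0.05 was found for 17 of the 33, against 36.1% of all genes. With males only, 6 channel genes fell and 1 rose, against 6.04% of all genes that fell. Centring each mouse on its median gave 17 that fell and 1 that rose, and gave 1645 higher and 2945 lower over all genes, against 2290 higher and 1830 lower without centring. In whole tissue, fewer cells of a type and less RNA per cell cannot be told apart.

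**Figure D1:**
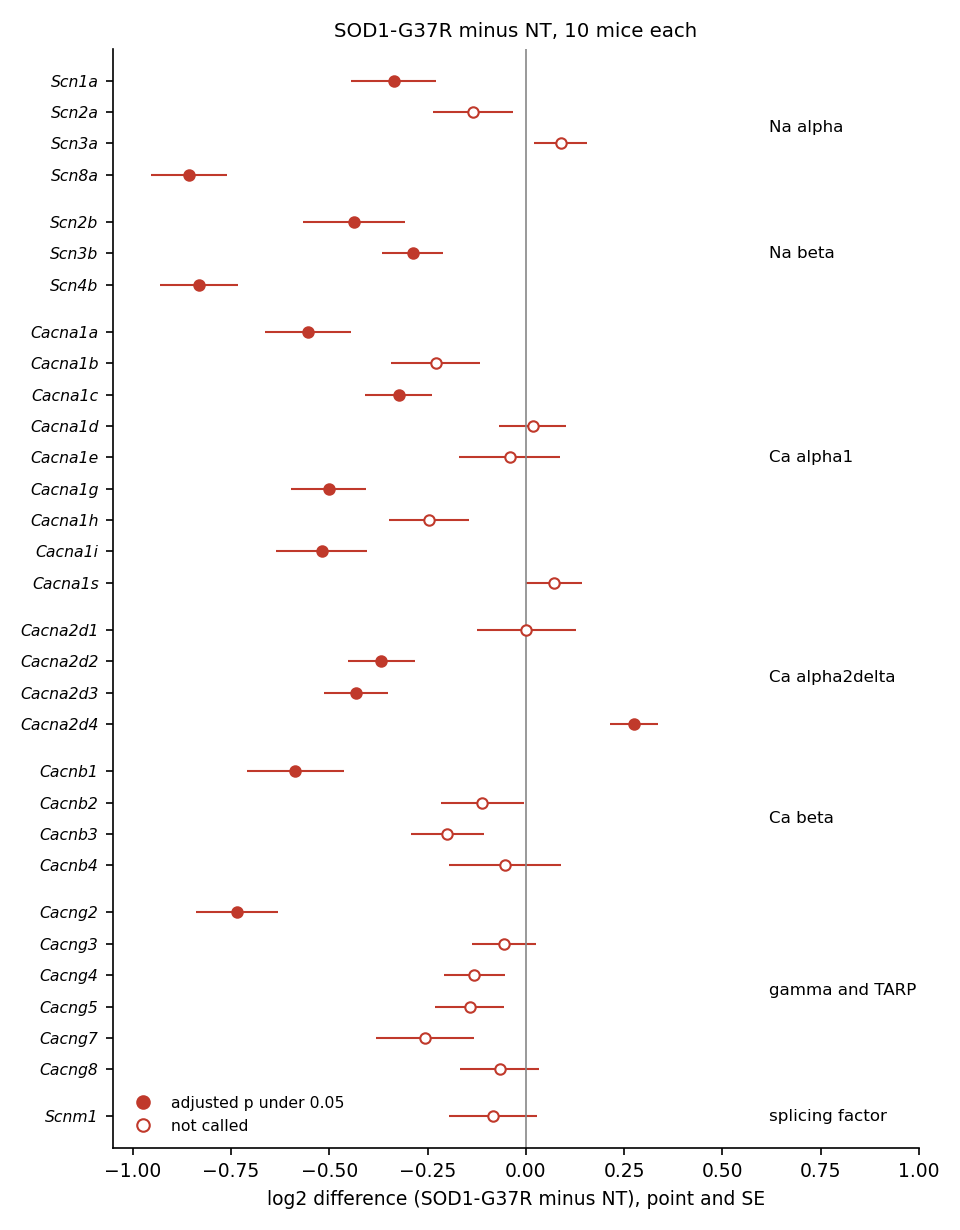
Difference between 10 SOD1-G37R and 10 NT mice for 31 channel genes, by subunit class, on the log2 scale (point, with 1 SE of the limma fit; filled where called). Of the 14 filled points, 13 lie below 0, from Scn8a at -0.86 to Scn3b at -0.29, and Cacna2d4 alone lies above 0, at 0.28.

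Among the sodium channel alpha subunits, Scn8a and Scn1a fell. Scn8a (chromosome 15, 100869858 to 101045938, plus strand, GRCm38) encodes Nav1.6, the main sodium channel of mature axon initial segments and nodes. Its level in SOD1-G37R mice was 6.83 at the lowest, 7.12 at the median and 7.67 at the highest, against 7.77, 8.06 and 8.25 in NT mice. Every SOD1-G37R mouse thus lay below every NT mouse. The difference was -0.86 (SE 0.0964, adjusted p = 2.97e-07, limma). Scn1a (chromosome 2, 66270778 to 66440840, minus strand) encodes Nav1.1, which is prominent in fast-spiking inhibitory neurons. It ran from 6.51 over a median of 6.77 to 7.13 in SOD1-G37R mice and from 6.73 over 7.11 to 7.52 in NT mice, so that the groups overlapped. The difference was -0.34 (SE 0.108, adjusted p = 0.0228).

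Scn2a, which encodes Nav1.2 of unmyelinated axons, was not called. Its level was 4.10, 4.52 and 5.02 in SOD1-G37R mice and 4.33, 4.60 and 4.98 in NT mice (lowest, median and highest), with a difference of -0.13 (SE 0.102, adjusted p = 0.380). Scn3a, a channel of the developing nervous system, lay near the floor of the table. It ran from 0.57 over 0.70 to 1.11 in SOD1-G37R mice (0.76 ± 0.17, SD, n = 10) and from 0.53 over 0.64 to 0.82 in NT mice (0.67 ± 0.09, n = 10). It was not called and was the highest of the class by its difference, at 0.09 (SE 0.0668, adjusted p = 0.371).

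Among the sodium channel beta subunits, Scn4b, Scn2b and Scn3b fell. Scn4b (chromosome 9, 45138395 to 45154152, plus strand) encodes the beta4 subunit, whose tail is known to block the open pore and to give resurgent current. Its level was 6.62, 7.14 and 7.56 in SOD1-G37R mice (lowest, median and highest), against 7.52, 7.95 and 8.17 in NT mice. A single NT mouse, male 2 of experiment 2, at 7.52, lay below the highest SOD1-G37R mouse, male 4 of experiment 2, at 7.56. The difference was -0.83 (SE 0.0996, adjusted p = 7.82e-07). Scn2b (chromosome 9, 45117782 to 45130070, plus strand) encodes beta2, which like beta4 is tied to the pore by a disulfide bond. It ran from 5.15 over 5.67 to 6.46 in SOD1-G37R mice and from 5.79 over 6.05 to 6.62 in NT mice, with a difference of -0.44 (SE 0.131, adjusted p = 0.0147). Scn3b (chromosome 9, 40269217 to 40291618, plus strand), the gene of beta3, ran from 3.13 over 3.35 to 3.71 in SOD1-G37R mice and from 3.34 over 3.67 to 3.89 in NT mice. Its difference was the closest to 0 of these genes, -0.29 (SE 0.0786, adjusted p = 0.00773).

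Of the calcium channel alpha1 subunits, which form the pore, the P/Q-type gene Cacna1a, the T-type genes Cacna1g and Cacna1i and the L-type gene Cacna1c fell. Cacna1a (chromosome 8, 84388440 to 84640246, plus strand) encodes Cav2.1, the main calcium channel for transmitter release at many terminals, the mouse neuromuscular junction among them. Its level was 5.98, 6.32 and 6.93 in SOD1-G37R mice (lowest, median and highest) and 6.65, 6.88 and 7.44 in NT mice. The highest SOD1-G37R value, that of male 4 of experiment 2, lay above the NT median. The difference was -0.55 (SE 0.110, adjusted p = 0.000459). Cacna1g (chromosome 11, 94408391 to 94474198, minus strand), which encodes the T-type channel Cav3.1, had levels of 4.59, 4.94 and 5.25 in SOD1-G37R mice and 5.13, 5.46 and 5.79 in NT mice. The overlap was slight, and the difference was -0.50 (SE 0.0949, adjusted p = 0.00027).

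Cacna1i (chromosome 15, 80287238 to 80398279, plus strand), the gene of the T-type channel Cav3.3, had levels of 4.90, 5.27 and 6.05 in SOD1-G37R mice and 5.44, 5.91 and 6.28 in NT mice. Male 1 of experiment 2 gave the SOD1-G37R value of 6.05, above the NT median, and the difference was -0.52 (SE 0.116, adjusted p = 0.0014). Cacna1c (chromosome 6, 118587240 to 119196418, minus strand), the L-type gene for Cav1.2, ran from 3.77 over 3.96 to 4.27 in SOD1-G37R mice and from 4.08 over 4.24 to 4.75 in NT mice. The difference was -0.32 (SE 0.0854, adjusted p = 0.00606). The other 5 alpha1 genes were not called. Cacna1h, the third T-type gene, came nearest to the threshold with a difference of -0.25 (SE 0.102, adjusted p = 0.0806). Cacna1b, whose N-type channel shares the release of transmitter with the P/Q type, had a difference of -0.23 (SE 0.113, adjusted p = 0.146). Cacna1e, of the R type, and Cacna1d, the second L-type gene, had differences of -0.04 and 0.02. Exons of Cacna1d overlap those of Chdh on the other strand, and whether the counting used strand is not given in the sources used here, so the value of Cacna1d is uncertain. Cacna1s, the L-type channel of skeletal muscle, ran from 0.75 over 0.94 to 1.24 in SOD1-G37R mice and from 0.74 over 0.87 to 1.18 in NT mice. It stood at the upper end of the class, with a difference of 0.07 (SE 0.0714, adjusted p = 0.520).

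The alpha2delta subunits, extracellular proteins that raise the number of calcium channels at the surface, did not move as a class. Cacna2d3 (chromosome 14, 28904943 to 29721864, minus strand) fell, with levels of 5.50, 5.75 and 5.93 in SOD1-G37R mice and 5.87, 6.12 and 6.46 in NT mice (lowest, median and highest). Only its extremes overlapped, and the difference was -0.43 (SE 0.0817, adjusted p = 0.000271). Cacna2d2 (chromosome 9, 107399612 to 107529343, plus strand) fell as well, with levels of 5.67, 6.27 and 6.57 in SOD1-G37R mice and 6.44, 6.57 and 6.73 in NT mice, and a difference of -0.37 (SE 0.0856, adjusted p = 0.00209). Its SD was 0.26 in SOD1-G37R mice and 0.09 in NT mice. Cacna2d1, the main binding protein of gabapentin, averaged 3.95 ± 0.39 in SOD1-G37R mice and 3.95 ± 0.19 in NT mice, with a difference of 0.00 and an SE of 0.126. Cacna2d4 (chromosome 6, 119236526 to 119352407, plus strand), known from photoreceptors, was the 1 gene that rose. Its level was 1.08, 1.29 and 1.54 in SOD1-G37R mice and 0.93, 1.06 and 1.12 in NT mice, with an overlap of male 1 of experiment 2 alone among the SOD1-G37R mice. The difference was 0.28 (SE 0.0613, adjusted p = 0.00136), at a mean level of 1.18.

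The calcium channel beta subunits sit inside the cell, bind the alpha1 subunit and help it to the membrane. Cacnb1 (chromosome 11, 98001508 to 98023034, minus strand), the beta subunit of skeletal muscle that is also made in brain, fell. It ran from 5.40 over 5.81 to 6.23 in SOD1-G37R mice and from 5.81 over 6.54 to 6.71 in NT mice, and the difference was -0.59 (SE 0.123, adjusted p = 0.000791). The other beta genes were not called. Cacnb3 had levels of 5.39, 5.61 and 6.16 in SOD1-G37R mice and 5.49, 5.88 and 6.32 in NT mice, with a difference of -0.20 (SE 0.0928, adjusted p = 0.122). Cacnb2 had a difference of -0.11 (SE 0.105). Cacnb4 ran from 4.18 over 4.43 to 4.90 in SOD1-G37R mice and from 3.98 over 4.52 to 5.20 in NT mice, with a difference of -0.05 (SE 0.143, adjusted p = 0.833). Its exons overlap those of A430018G15Rik on the other strand, so its reads may be shared.

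Of the gamma subunits and TARPs, Cacng2 fell and the other 5 were not called. Cacng2 (chromosome 15, 77991748 to 78120028, minus strand) encodes stargazin, the first TARP described. Its level was 6.26, 6.89 and 7.17 in SOD1-G37R mice and 7.25, 7.59 and 7.87 in NT mice (lowest, median and highest). As with Scn8a, the groups did not overlap, and the difference was -0.73 (SE 0.104, adjusted p = 7.96e-06). Scn8a and Cacng2 were the 2 channel genes that were lower in SOD1-G37R mice without any overlap over all 20 mice, against 0.773% of all genes, and none was higher without overlap, against 3.23%. Without overlap over all 20 mice, these 2 genes cannot overlap within either experiment, so that result adds no support. No other channel gene was lower without overlap in both experiments, where 1.1% of all genes were. Exons of Cacng2 overlap those of A730060N03Rik on the other strand, so its reads may be shared as well. The same holds for Cacna1a, Cacna2d2 and Cacnb1, which fell, and for Cacna1h, Cacna1s and Cacnb2. Exons of Cacng8 overlap a microRNA gene on its own strand. The genes that overlap these others are annotated but have no row in the deposited table. Cacng7, a TARP of another subtype, had levels of 6.95, 7.56 and 7.88 in SOD1-G37R mice and 7.21, 7.80 and 8.14 in NT mice, and a difference of -0.26 (SE 0.125, adjusted p = 0.140). Cacng4 ran from 4.75 over 5.13 to 5.30 in SOD1-G37R mice and from 4.99 over 5.22 to 5.64 in NT mice, with a difference of -0.13 (SE 0.0784, adjusted p = 0.242). Cacng3 ran from 4.07 over 4.25 to 4.49 in SOD1-G37R mice and from 3.86 over 4.29 to 4.64 in NT mice, within the NT range throughout, with a difference of -0.06 (SE 0.0825, adjusted p = 0.688). Cacng5 and Cacng8, further TARP genes, had differences of -0.14 and -0.07. Scnm1, a component of the minor spliceosome that was named for its effect on a mutant Scn8a in mice, had levels of 6.08, 6.17 and 6.84 in SOD1-G37R mice and 5.92, 6.35 and 6.88 in NT mice, with a difference of -0.08 (SE 0.112, adjusted p = 0.655).

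**Figure D2:**
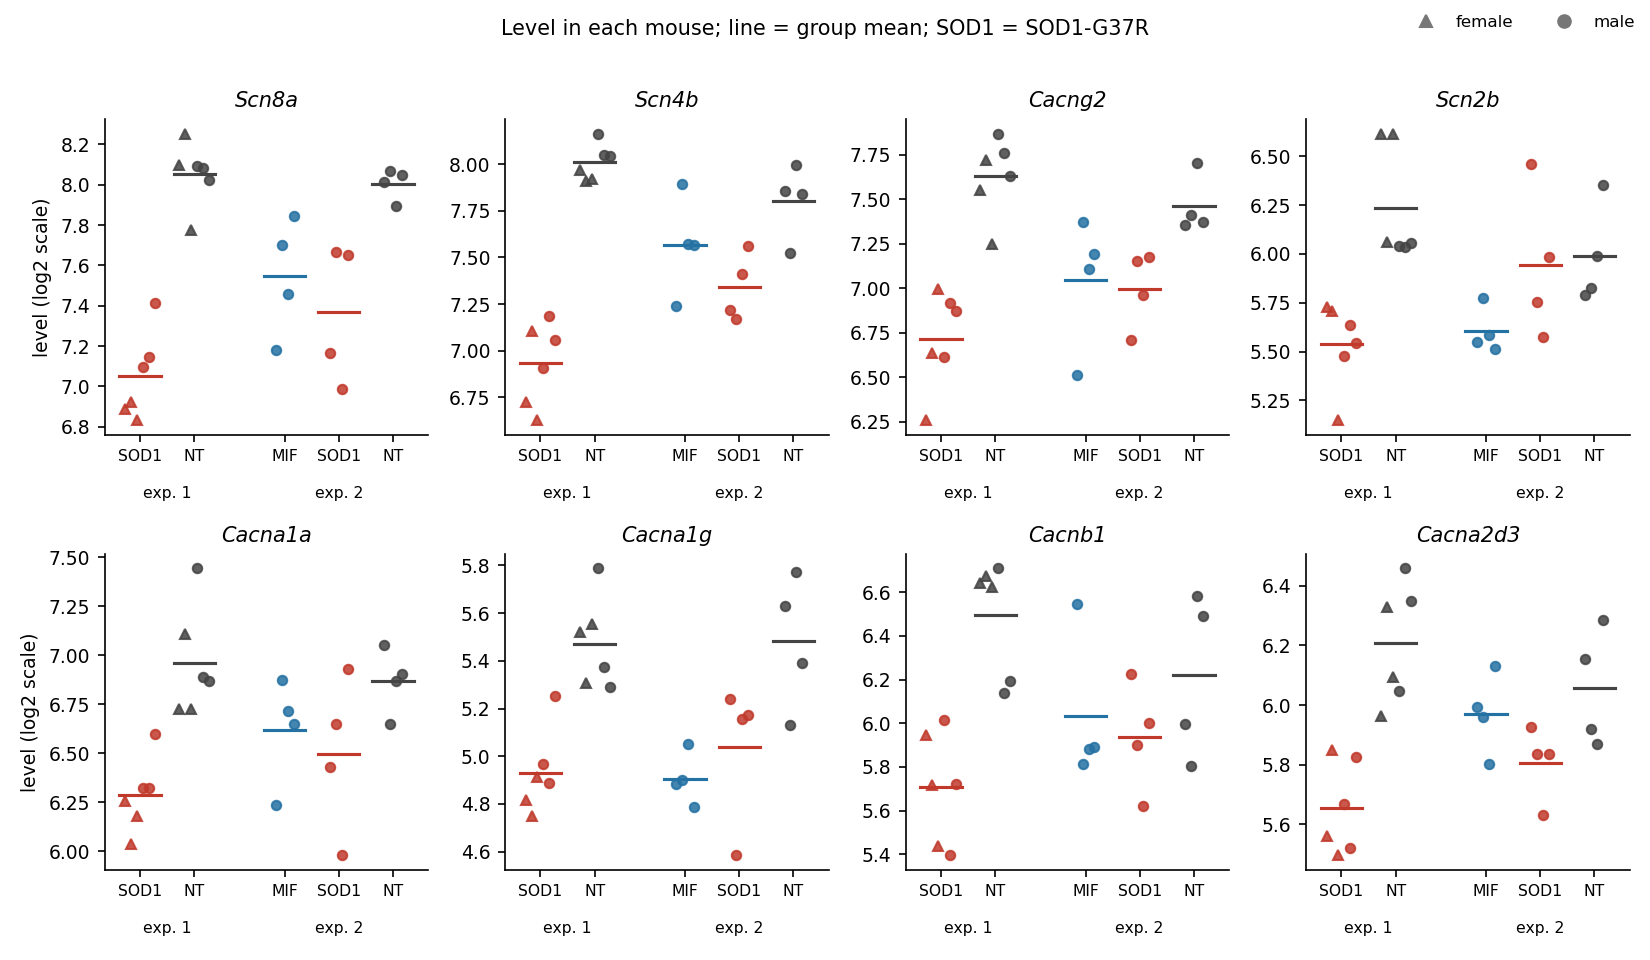
Level of 8 channel genes in each mouse on the log2 scale (triangles, females; circles, males; line, group mean), with SOD1-G37R and NT mice of experiment 1 on the left and MIF, SOD1-G37R and NT males of experiment 2 on the right of each panel. In Scn8a and Cacng2 every SOD1-G37R mouse lies below every NT mouse, while in Cacna1a and Cacnb1 the experiment 2 groups overlap.

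Whether genes of 1 class differed in how far they fell was tested directly, by the difference between the 2 genes' values in each mouse. This was done for all 29 pairs within a class among the genes at or above the median level, with a two-sided exact permutation test of genotype within experiment, adjusted over the 29 pairs. The smallest p that the 64680 arrangements allow is 3.1e-05. Of the 29 pairs, 11 passed. Scn8a fell further than Scn1a, with a difference between the 2 genes' differences of -0.52 (adjusted p = 0.000897, exact permutation test), and lay below Scn2a by the same measure, at -0.72 (adjusted p = 0.000897, exact permutation test). Scn4b fell further than Scn2b, at -0.40 (adjusted p = 0.0416, exact). Cacng2 stood apart from each of the other 4 TARP genes in the test, by -0.60 from Cacng4 (adjusted p = 0.00112, exact), -0.68 from Cacng3 (0.00359), -0.59 from Cacng5 (0.00717) and -0.48 from Cacng7 (0.0416). Cacnb1 differed from Cacnb2 by -0.48 and from Cacnb3 by -0.39 (adjusted p = 0.0416 for each, exact), and Cacna1a from Cacna1h by -0.31 (adjusted p = 0.0461, exact). Cacnb1 and Cacnb4 lay further apart, at -0.53, but did not pass (adjusted p = 0.153, exact), and neither did Cacna1i and Cacna1g against Cacna1h, at -0.27 (0.244) and -0.26 (0.274). In all 11 pairs the sign was the same in both experiments. The test combined both experiments, so pairs that pass tend to share a sign, and this adds no separate support. Pairs share genes and are not independent of each other, and the 2 genes of a pair differ in level, which sets the spread on this scale. Differences of low genes are also compressed. In most pairs that passed, the gene that fell further had the higher mean level, as with Scn8a at 7.60 and Scn2a at 4.55. Cacng2, at 7.17, and Cacng7, at 7.62, went the other way. The part of the level in these results was not tested. The pairs of Cacna1a, Cacna1g and Cacna1i with each other and the pair of Cacna2d2 and Cacna2d3 did not pass either, with differences between -0.06 and -0.02.

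**Figure D3:**
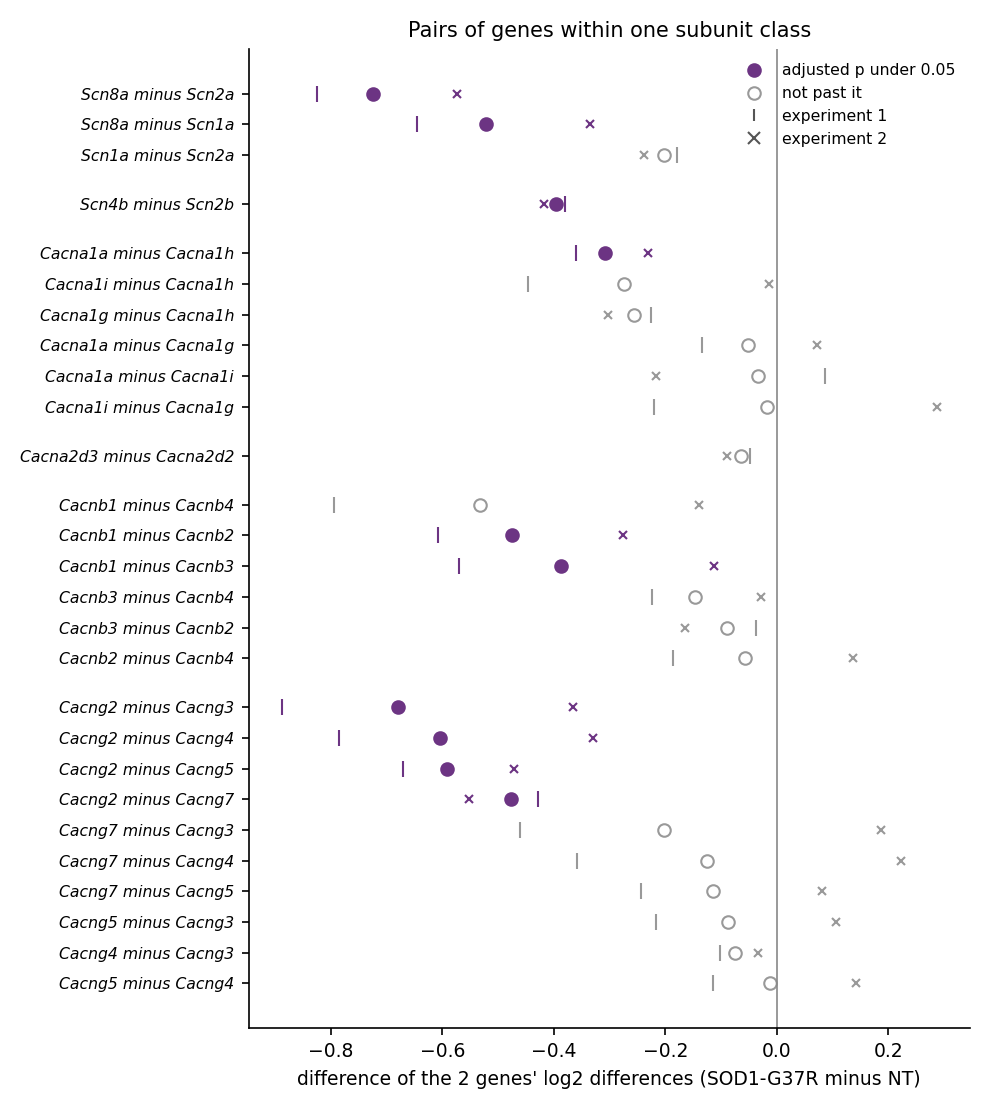
Difference between 2 genes of a class in their SOD1-G37R minus NT difference on the log2 scale, for 27 pairs (circle, both experiments; bar, experiment 1; cross, experiment 2; filled where the adjusted p of the exact permutation test was under 0.05). The gene named first has the more negative difference in each pair, and the 4 pairs that set Cacng2 against another TARP lie between -0.68 and -0.48.

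Each experiment was then fitted alone. In experiment 1, with 6 SOD1-G37R and 6 NT mice, 15 channel genes fell and 1 rose, against 11.1% and 13.1% of all genes, and the median difference was -0.31. An unadjusted p under 0.05 was found for 19 of 33, against 34.4% of all genes. Of the channel genes, 11 were lower in every SOD1-G37R mouse than in every NT mouse of that experiment, against 4.72% of all genes. They included Scn8a, Scn2b, Scn4b, Cacna1a, Cacna1g, Cacna1i, Cacna2d2, Cacna2d3, Cacnb1 and Cacng2. Cacna2d4 was higher without overlap, against 7.07% of all genes. Cacng7 was called in this experiment, with a difference of -0.49 (adjusted p = 0.0168), whereas in experiment 2 it had a difference of 0.09.

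In experiment 2, with 4 males of each genotype, 1 channel gene was called, against 3.83% of all genes. It fell, against 0.477%, and none rose, against 3.36%. That gene was Scn8a, whose levels were 7.16, 7.67, 6.99 and 7.65 in SOD1-G37R males and 8.02, 8.07, 7.89 and 8.05 in NT males. The groups did not overlap, and the difference was -0.64 (SE 0.164, adjusted p = 0.0393). Cacng2 was likewise lower without overlap, at 6.71, 7.15, 6.96 and 7.17 in SOD1-G37R males and 7.36, 7.41, 7.70 and 7.37 in NT males, but its adjusted p was 0.146. Scn8a and Cacng2 were the 2 channel genes of that kind, against 3.07% of all genes, and none was higher without overlap, against 6.56%. The median difference of the channel genes was -0.14, and 6 of 33 had an unadjusted p under 0.05, against 16.3% of all genes. The call of Scn8a in experiment 2 was lost when NT male 1, 2, 3 or 4, SOD1-G37R male 1 or 3, or MIF male 3 was left out of the fit, which brought the count to 0 in each case.

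The change of the genotype difference between the experiments was tested among the 14 untreated males as an interaction. None of the 33 genes was called by limma, against 0% of all genes. An unadjusted p under 0.05 was found for 5 of the 33, against 3.57% of all genes, and these were Scn4b, Cacng2, Cacna1i and Cacna1c, with interactions (experiment 2 minus experiment 1) of 0.57, 0.49, 0.60 and 0.41, and Cacng8, at -0.41. The interaction lay above 0 in 25 genes and below 0 in 8, with a median of 0.12 against -0.0038 for all genes. The sexes were compared in experiment 1. None of the 33 genes showed a called genotype-by-sex interaction in limma, against 0% of all genes, and Cacna2d1 was the 1 gene with an unadjusted p under 0.05 (0.0486), against 4.34% of all genes.

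**Figure D4:**
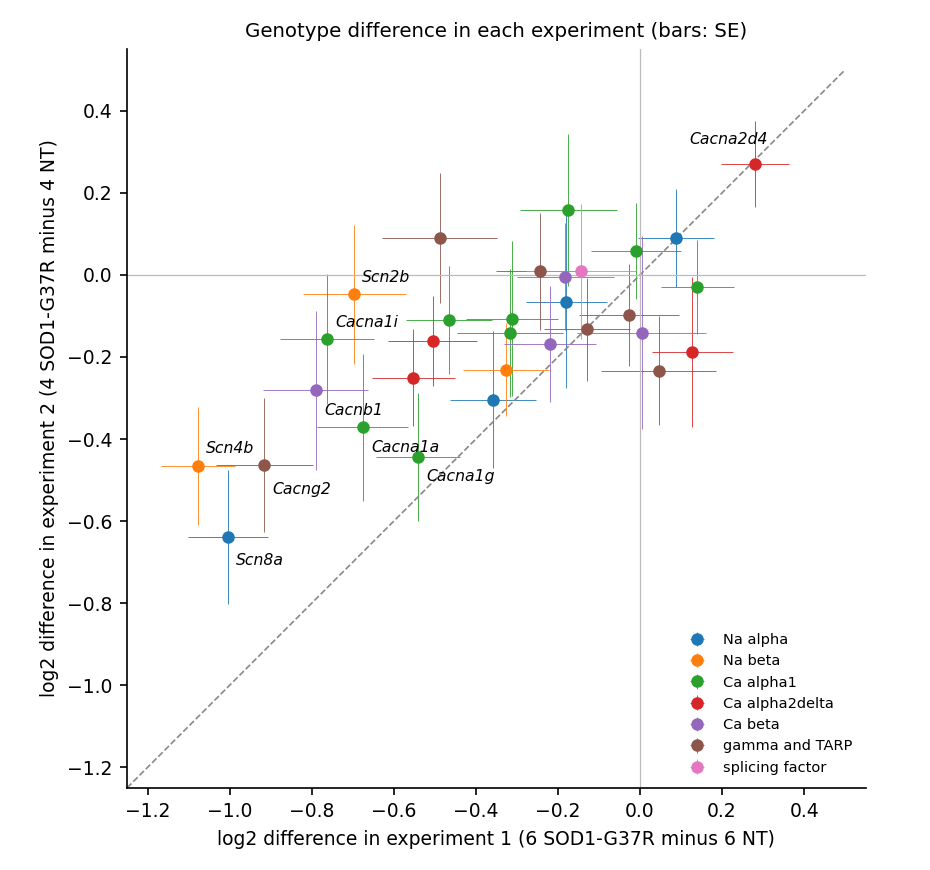
Difference between SOD1-G37R and NT mice on the log2 scale in experiment 1 (horizontal) and experiment 2 (vertical) for 31 channel genes, with 1 SE each way and the line of equal differences dashed. Scn8a, Scn4b and Cacng2 lie furthest to the left, at -1.0, -1.08 and -0.92, and all 3 lie above the dashed line, at -0.64, -0.46 and -0.46 in experiment 2.

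Proteins that work with these channels were read from lists. The shares of all genes to set beside each list are 11.8% that fell and 14.8% that rose. Of 13 measured partners of sodium channels at the axon initial segment and node, 5 fell, 2 rose and 6 were not called, with a median of -0.06. The median of this list was 0.045 in experiment 1, where 5 fell and 2 rose, and -0.20 in experiment 2, where none fell and 1 rose. Of all genes, 11.1% fell and 13.1% rose in experiment 1, and 0.477% fell and 3.36% rose in experiment 2. Sptbn4, the beta4 spectrin under the nodal membrane, fell by 0.69 on the log2 scale (adjusted p = 4.12e-05, limma), and Fgf11, a channel-binding growth factor homologue, fell by 0.67 (adjusted p = 0.000271). The adhesion molecules Nrcam and Nfasc rose, with differences of 0.73 (adjusted p = 6.03e-07) and 0.37 (adjusted p = 0.000383). The list thus held genes that moved in opposite directions, and the share that rose was near that of all genes. Nrcam and Nfasc are also made by glia.

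Of 16 measured partners of calcium channels, 9 fell, none rose and 7 were not called, with a median of -0.24. The calcium sensor Cabp1 had the largest difference, -0.85 (adjusted p = 8.94e-06), followed by Stac2, an adaptor of L-type channels, at -0.50 (adjusted p = 9.8e-05), and Camk2b, a kinase that acts on them, at -0.48 (adjusted p = 0.0005). The sodium leak channel complex had 3 of 4 measured genes lower and none higher. These were Fam155a (-0.50, adjusted p = 1.17e-05), Unc80 (-0.41, adjusted p = 0.0398) and the pore gene Nalcn (-0.27, adjusted p = 0.0413).

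A list of 12 genes held the AMPA receptor subunits, which are the cargo of the TARPs, and other auxiliaries and partners of the receptor. Of the 12, 4 fell and 8 were not called, with a median of -0.15. These 4 were Syndig1, Dlg4, Gria3 and Cnih2, with differences of -0.37, -0.40, -0.43 and -0.38. Of the 4 receptor subunit genes, Gria3 was the one called. For intracellular calcium release, entry and extrusion, 6 of 19 measured genes fell, 1 rose and 12 were not called. The plasma membrane pump Atp2b2, the release channel Ryr2 and the exchanger Slc8a3 fell, by 0.56, 0.44 and 0.44 on the log2 scale. Itpr2, the inositol trisphosphate receptor known from astrocytes, rose, with a difference of 0.59 (adjusted p = 8.34e-08), and its groups did not overlap.

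Markers of some cell types also differed between the genotypes. The shares of all genes beside them are again 11.8% that fell and 14.8% that rose. Of 10 neuron markers, 9 fell and none rose, with a median of -0.58, and their mean level ran from 8.07 to 8.68 in SOD1-G37R mice and from 8.77 to 8.99 in NT mice. Of 8 motor neuron markers 6 fell (median -0.46, mean level 3.66 to 4.32 in SOD1-G37R mice and 4.27 to 4.71 in NT mice), and of 4 inhibitory neuron markers 3 fell. Rbfox3 and Snap25, which mark neurons in general, had differences of -0.80 and -0.59. The differences of Scn8a, Scn4b and Cacng2, which were furthest below 0 among the 33 channel genes, lay between -0.86 and -0.73. The median of the 33 channel genes was -0.23, closer to 0 than that of the neuron markers. Of 7 microglia markers 5 rose (median 1.2, mean level 6.71 to 7.31 in SOD1-G37R mice and 5.93 to 6.23 in NT mice), and of 7 astrocyte markers 4 rose (median 0.37). Other lists moved little. Of 6 oligodendrocyte markers 1 fell, of 4 oligodendrocyte precursor markers 1 rose, and of 4 ependyma markers 1 rose. Of 3 measured markers of Schwann cells and roots 1 fell. None of the 4 markers of endothelium and none of the 4 measured markers of meninges and fibroblasts was called. The part of these cell types in the differences of the channel genes was not tested. Of 5 measured markers of skeletal muscle, the tissue of Cacna1s and Cacnb1, 1 rose and 1 fell. Their mean level ran from 2.67 to 2.94 in SOD1-G37R mice and from 2.68 to 2.88 in NT mice.

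The MIF mice were compared with the untreated SOD1-G37R males to see whether the channel genes differed after treatment. None of the 33 genes was called by limma, against 0.00644% of all genes (1 gene, Cd74), and none had an unadjusted p under 0.05, against 3.29% of all genes. The differences ran from -0.34 to 0.23, with 22 below 0 and 11 above, where 50% of all genes lay below 0, and a median of -0.07. No channel gene separated the 2 groups without overlap, against 0.837% of all genes that were lower and 0.96% that were higher in MIF mice. The 95% intervals of the 33 differences all held 0 and together spanned -0.70 to 0.55. A fall of the size seen between the genotypes in Cacna1a, -0.554, lay within the intervals of several genes, Scn2b among them. A rise of that size lay just above the highest upper limit, 0.548 in Scn1a. The interval of Cacna1a itself ran from -0.256 to 0.500. These intervals come from the experiment 2 fit, in which the genotype difference of Cacna1a was -0.372. A rise of that smaller size lay within the interval of Cacna1a. The row of Mif itself had levels of 10.02, 9.73, 9.77 and 9.57 in MIF mice and 9.72, 9.53, 9.78 and 9.71 in untreated SOD1-G37R males, with a difference of 0.09 (SE 0.116). It was at 9.65, 9.58, 9.91 and 9.75 in the NT males. Whether transcripts of the vector carry the 3' end that this row counts is not given in the sources used here, so the row is no check of the treatment.

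Scn8a had levels of 7.18, 7.70, 7.46 and 7.85 in MIF mice, against 7.16, 7.67, 6.99 and 7.65 in untreated SOD1-G37R males. The groups overlapped in part, with MIF males 2 and 4 above every untreated male and untreated males 1 and 3 below every MIF mouse. The difference was 0.18 (SE 0.164, 95% interval -0.17 to 0.53), and it ran from 0.053 without untreated male 3 to 0.30 without MIF male 1. Scn4b was at 7.24, 7.90, 7.57 and 7.57 in MIF mice and 7.22, 7.17, 7.41 and 7.56 in untreated SOD1-G37R males. It had the highest difference of the 33 genes, 0.23 (SE 0.144, interval -0.08 to 0.53), which was 0.12 without MIF male 2. Cacng2 was at 6.51, 7.37, 7.11 and 7.19 in MIF mice and 6.71, 7.15, 6.96 and 7.17 in untreated SOD1-G37R males, with a difference of 0.05 (SE 0.164, interval -0.30 to 0.40) that ran from -0.061 without MIF male 2 to 0.22 without MIF male 1. Scn2b had the lowest difference, -0.34 (SE 0.169, interval -0.70 to 0.02), at 5.55, 5.78, 5.59 and 5.51 in MIF mice and 6.46, 5.76, 5.57 and 5.98 in untreated SOD1-G37R males. The untreated value of male 1, 6.46, was the highest of its group, with the next at 5.98. The difference was -0.17 without untreated male 1 and -0.46 without untreated male 3.

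Against the NT males of experiment 2, 30 of 33 channel genes had a difference below 0 in MIF mice, with a median of -0.17. None was called by limma, against 3.11% of all genes (2.89% higher and 0.225% lower), and 10 had an unadjusted p under 0.05, against 14.4% of all genes. 6 genes were lower in each MIF mouse than in each NT male, against 3.17% of all genes, and they were Scn8a, Scn2b, Scn3b, Cacna1g, Cacna2d2 and Cacnb3. None was higher in that way, against 6.48% of all genes. With all 24 mice in the fit, 6 channel genes fell in MIF mice, against 2.39% of all genes in that fit. Scn8a, Scn2b, Scn3b and Cacna1g were among these 6, and Cacna2d2 and Cacnb3 were not. The NT and untreated SOD1-G37R males are the same mice as in the genotype comparison of experiment 2. Cacna1g had the largest difference, with levels of 4.88, 4.90, 5.05 and 4.79 in MIF mice and 5.63, 5.13, 5.77 and 5.39 in NT males. The difference was -0.58 (SE 0.156, adjusted p = 0.0589), and adjusted p over the alternatives ran from 0.0033 to 0.173. It passed the threshold without NT male 2 (-0.69, adjusted p = 0.0231) and without SOD1-G37R male 2 (-0.58, adjusted p = 0.0223). Scn8a differed from the NT males by -0.46 (SE 0.164, adjusted p = 0.176), with MIF levels between 7.18 and 7.85 and NT levels between 7.89 and 8.07. The remaining 4 genes had differences closer to 0. Cacnb3 was at 5.46, 5.44, 5.60 and 5.57 in MIF mice and 6.0, 5.8, 5.93 and 5.88 in NT males, a difference of -0.38 (adjusted p = 0.200). Scn3b was at 3.24, 3.37, 3.38 and 3.29 in MIF mice and 3.71, 3.62, 3.53 and 3.71 in NT males, a difference of -0.32 (adjusted p = 0.172). Cacna2d2 was at 6.21, 6.39, 6.2 and 6.38 in MIF mice and 6.61, 6.47, 6.44 and 6.52 in NT males, a difference of -0.22 (adjusted p = 0.391). For Scn2b, the NT males were at 5.79, 5.83, 5.99 and 6.35, and the difference was -0.39 (adjusted p = 0.297). The neuron markers had a mean level of 8.32 to 8.73 in MIF mice, between those of the untreated SOD1-G37R males (8.15 to 8.68) and the NT males (8.77 to 8.90), and overlapped those of the SOD1-G37R males. Of 7 listed markers of sensory ganglion neurons, 2 were measured. Their mean level was 3.67 to 4.27 in MIF mice, above the untreated SOD1-G37R males (3.08 to 3.50) and the NT males (3.26 to 3.50). Neither marker was called in MIF mice against untreated SOD1-G37R males. The part of these markers in the MIF values was not tested.

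**Figure D5:**
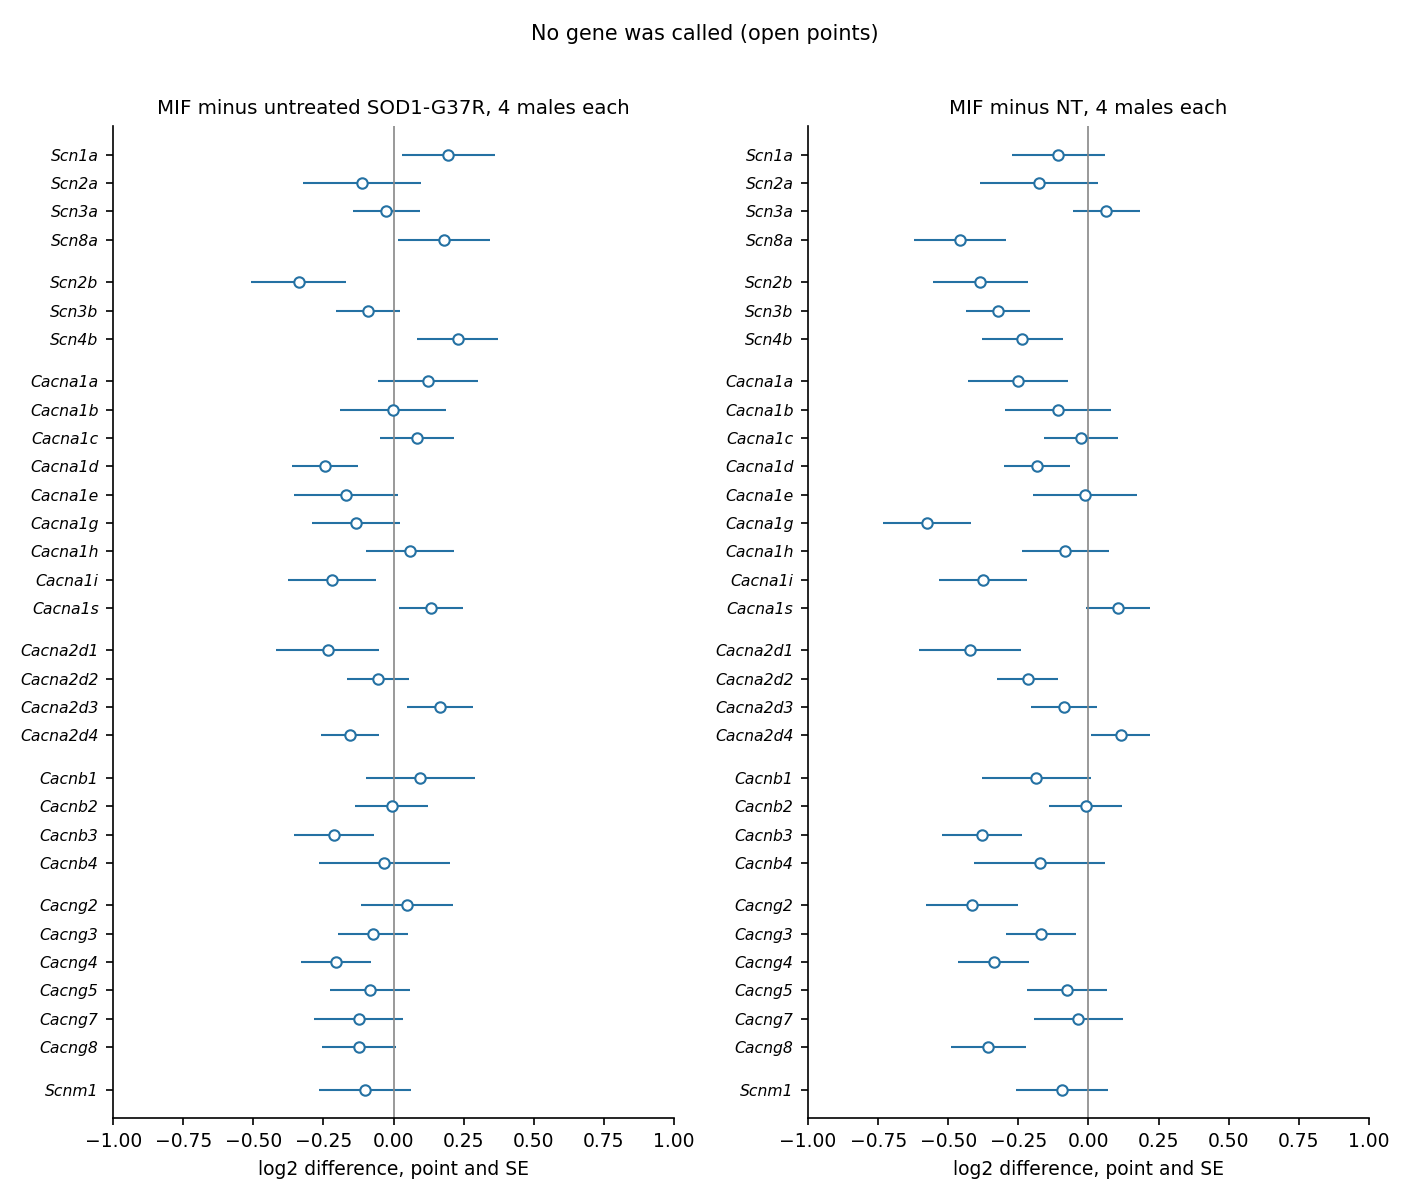
Difference between 4 MIF mice and 4 untreated SOD1-G37R males (left) and between the same MIF mice and 4 NT males (right) for 31 channel genes on the log2 scale, with 1 SE. No point is filled because no gene was called. Both panels use the same MIF mice, and the left runs from Scn2b at -0.34 to Scn4b at 0.23, the right from Cacna1g at -0.58 to Cacna2d4 at 0.11.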

How the data were processed

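Lumbar spinal cord RNA of 24 mice was measured by bulk MARS-seq. Per the labels, the authors' tools were Trim Galore 0.4.5, cutadapt 1.15, STAR 2.5.2a and RSEM 1.2.28 on GRCm38, and their methods name SVA/ComBat for batch correction. The deposited table holds log2-scale values per gene and mouse, which run from -0.79 to 14.8, with 2.22% below 0, under a header that calls them normalized counts. The transform is not given in the sources used here, removal of the experiment difference by the authors can narrow the spread, and differences of low genes are compressed. The authors give an average number of reads per sample, but the read depth of each mouse is not known, so no interval from counts is given. Columns of the authors' own fold changes and p-values were not used.

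All 15524 genes were fitted with limma 3.58.1 in R 4.3.3, without filter or trend, and p-values were adjusted by Benjamini-Hochberg. Genotype was fitted over 20 mice with experiment in the model, and within experiment 1 over 12 mice with sex. Experiment 2 and both MIF comparisons used the 12 males, and the interactions the 12 mice of experiment 1 (sex) or the 14 untreated males (experiment). Pairs of genes were compared by an exact permutation test. Replicates are separate mice. Symbols came from the table, and positions from GENCODE M21, which gives GRCm38 coordinates. The fits were tested on simulated data. Figures were drawn with matplotlib 3.10.9.

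The genes and lists were chosen with earlier results of these data known. Full values were given for the called genes, the 6 uncalled genes of highest level, the ends of each class, and the 2 to 4 genes of smallest adjusted p in each list. A few genes that enter the counts are not reported here by name or drawn. Alternatives changed normalization, variance model, filter, threshold, mice, covariates and pairing. The mice that share a number in the labels are not stated to come from 1 litter or day, and the correlations of their deviations ran from -0.26 to 0.37 over all genes and from -0.42 to 0.56 over the channel genes, below 0.1 for some pair of every set, so the numbers were not treated as pairs. Scn4a, Scn7a, Scn9a, Scn10a, Scn11a, Cacna1f, Cacng1 and Cacng6 are not analysed here.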

Additional observations from a re-analysis of the deposited data

Results flagged for a closer look

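In each of the 33 genes, the most extreme mouse of the SOD1-G37R, NT and MIF groups was set against the range of its group, which made 99 tests, and a mouse stood apart in 4 of them. Chance alone would mark about 1 in 20 groups. Cacng4 was at 4.75 in SOD1-G37R female 2, below the next lowest SOD1-G37R mouse at 5.02. Scn4b was at 7.52 in NT male 2 of experiment 2, below the next lowest NT mouse at 7.84. MIF male 1 stood apart in both Cacnb1, at 6.55 against 5.89 in the next highest MIF mouse, and Cacng5, at 3.74 against 4.32 in the next lowest.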

How the results depend on the processing

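All 15 called genes kept their direction under every alternative tried and stayed called with each of the 20 mice left out in turn. Of these, 7 stayed called under every other alternative but the stricter threshold of 0.01, at which 13 were called. With males only, 7 genes were called (6 lower, 1 higher). Scn1a, Scn2b, Scn3b, Cacna1c, Cacna1i, Cacna2d2 and Cacnb1 were among those lost, and Cacna2d4 was not tested under the filter on level. Centring each mouse on its median gave 17 lower and 1 higher. Leaving out each mouse gave 15 to 17 called genes and a median of -0.277 to -0.190, 14 to 17 in experiment 1, 0 to 1 in experiment 2, 0 for MIF against untreated SOD1-G37R, 0 to 1 for MIF against NT, and 0 for both interactions. The share of all genes called in each of these fits is not set beside its count here. The counts therefore show only how they varied with the fit.

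In experiment 2 the count was 0 with quantile normalization and 0 at adjusted p under 0.01. Without the MIF mice, an alternative chosen after seeing the data, it was 1. For MIF against NT the count was 1 with a variance trend, 1 with the filter on level, 1 with the replicate block, 1 with the compared groups only and 6 with all 24 mice in the fit, all lower. The shares of all genes that were lower in these fits were 0.309%, 0.352%, 0.341%, 0.457% and 2.39%. The replicate block, which the deviations of same-numbered mice did not call for, gave 15 genes for genotype, 17 in experiment 1, 1 in experiment 2 and 0 for MIF against untreated SOD1-G37R. These counts, too, stand here without the share of all genes in the same fits. The causes of the changes in count were not tested.

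Of the 33 genes, 5 changed sign under some alternative for SOD1-G37R against NT, 16 for MIF against untreated SOD1-G37R and 12 for MIF against NT, and 0 of these were called in either fit. For the MIF comparisons only the genes given values in the text are listed by gene, a choice made after these sign changes were seen. Cacna1d was at -0.048 with median centring and -0.040 with quantile normalization, and Cacna2d1 at -0.065 and -0.062. With males only, Cacna1e was at 4.7e-05 and Cacna1s at -0.016. With 1 mouse left out, Cacna1d ran from -0.020 to 0.070, Cacna2d1 from -0.072 to 0.059, Cacnb4 from -0.12 to 0.019, Cacna1e from -0.12 to 0.015, and Cacng2 in MIF against untreated SOD1-G37R from -0.061 to 0.22.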
